A study of Danio rerio with 12 samples.

Results

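The globin genes of zebrafish blood were followed across 3 libraries of whole larvae: larvae that received iron oxide nanoparticles with a dextran coat (Dx-IONP), larvae labelled IC, and control larvae. Members were the rows of the deposited gene table whose symbol begins with hbae, hbbe, hbaa or hbba in any case. There were 9 such rows of 19983: 6 embryonic alpha globin genes (hbae1.1, hbae1.2, hbae1.3, hbae3, hbae4 and hbae5), 1 embryonic beta globin gene (hbbe3) and 2 adult alpha globin genes (hbaa1 and hbaa2). The rule reads names alone, but it was set with earlier results of these data known. A further 7 rows carry the human-style symbol HBE1 in the name table, that of a human embryonic beta globin. They fall outside the rule, the table does not say which zebrafish beta globin gene each is or at what stage it is used, and they are given by identifier beside the members. No adult beta globin gene could therefore be followed by name.

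All 3 groups were Tg(fli:EGFP) fish at 120 hours after fertilization, a line in which a fluorescent protein marks endothelium, and this reporter is shared by the controls. IC is not spelled out in the labels. Since the protocol names an iron condition, IC is the iron group by elimination. The sources used here give neither the dose nor the time of exposure. RNA of 20 pooled embryos gave 1 poly(A) library per group, and the 4 samples of a group are sequencing lanes of that library. With n = 1 library per group no test between groups was possible, and nothing below has a replicate check.

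Haemoglobin is a tetramer of alpha-type and beta-type globin chains, each of which holds a haem group that binds oxygen. Zebrafish, like other vertebrates, use different globin genes as embryos and larvae than as adults, and the genes for both chains lie intermixed in clusters. In the RefSeq order of the assembly GRCz12tu, hbae4, hbbe3, hbbe2 and hbae5 follow each other among the globin genes of a small cluster, and hbaa1, hbaa2, the hbae1 genes and hbae3 lie in a large one on another chromosome. Larval red cells carry these transcripts, so in whole larvae fewer red cells and less globin RNA per red cell cannot be told apart. The libraries held 55381504 reads for Dx-IONP, 48283541 for IC and 84043873 for control.

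Embryonic globin RNA was highest in the Dx-IONP library and lowest in the IC library. Levels are CPM, reads scaled to a common library size with TMM, a method that aligns the bulk of the genes. The 6 embryonic alpha genes summed to 5729 CPM in Dx-IONP, 923 CPM in IC and 2428 CPM in control. Without TMM scaling, the reads of these genes were 0.491% of all reads in Dx-IONP larvae (exact 95% interval 0.489 to 0.493). They were 0.0972% in IC larvae (0.0963 to 0.0981) and 0.269% in controls (0.268 to 0.270). The log2 fold of the CPM sum was 1.24 in Dx-IONP over control (95% counting interval 1.23 to 1.25), -1.40 in IC over control (-1.41 to -1.38) and 2.63 in Dx-IONP over IC (2.62 to 2.65). Scaled to total reads alone, the first of these was 0.87, that is, under 2-fold. All intervals here are for counting error alone: reads carried no molecular identifiers, and the spread between pools of larvae was not measured.

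The embryonic beta gene hbbe3 (ENSDARG00000038147), which encodes a beta-type chain, stood apart from the alpha genes in size. Its 4 lanes had 735, 731, 728 and 718 CPM in Dx-IONP, 1.1, 1.04, 1.24 and 1.41 CPM in IC, and 3.52, 2.94, 3.34 and 4.15 CPM in control. All lanes of Dx-IONP lay far above those of both other libraries, and all lanes of IC lay below those of control. The reads behind these values were 34562 in Dx-IONP larvae, 61 in IC larvae and 325 in controls. The log2 fold was 7.69 in Dx-IONP over control (7.55 to 7.87), -1.52 in IC over control (-1.96 to -1.14) and 9.21 in Dx-IONP over IC (8.88 to 9.63). Of the 16807 genes with at least 1 CPM in a library, 105 had a higher log2 fold in Dx-IONP over control. Reads shared by similar transcripts were assigned by likelihood. How far hbbe3 shares reads with the rows named HBE1, and whether that split differed between libraries, was not tested.

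Set against the other globin reads of the same library, which needs no scaling between libraries, hbbe3 made up 3.53% of the reads of all 16 globin rows in Dx-IONP (3.49 to 3.57). It made up 0.0392% in IC (0.0300 to 0.0504) and 0.0499% in control (0.0446 to 0.0556). The IC and control shares overlap in their counting intervals, and the Dx-IONP share lies far above both. For each hbbe3 read there were 7.87 embryonic alpha reads in Dx-IONP larvae, 769 in IC larvae and 695 in controls. The difference of hbbe3 in Dx-IONP was thus far larger than that of the embryonic alpha genes as a whole.

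**Figure D1:**
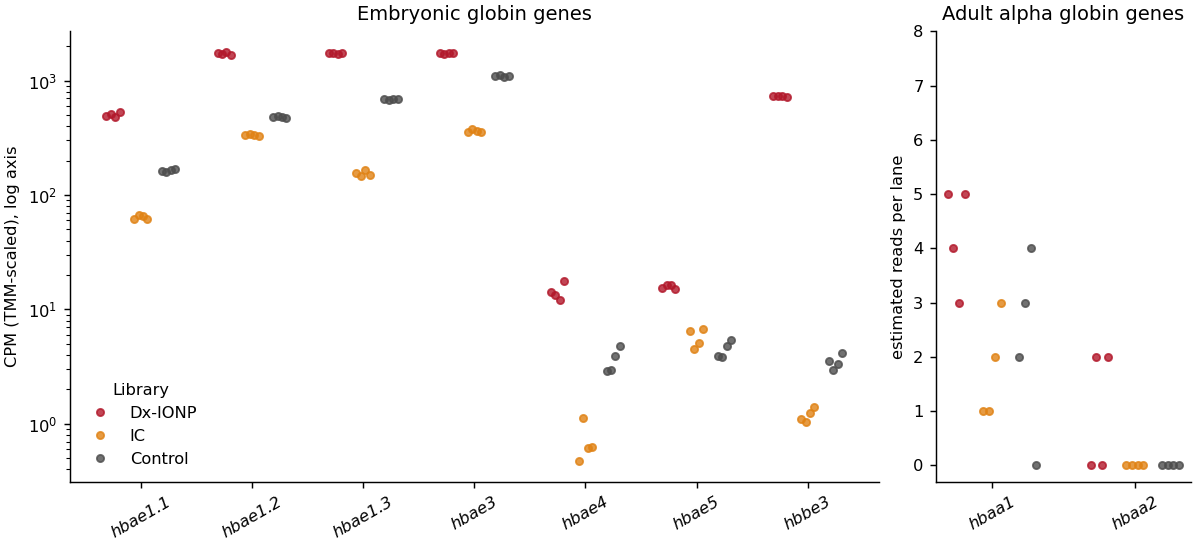
Globin gene levels in each sequencing lane. Left, CPM on a log axis for the 7 embryonic genes; right, estimated reads for the 2 adult alpha genes; each point is 1 of 4 lanes of the Dx-IONP, IC or control library. For hbbe3 the Dx-IONP lanes sit between 718 and 735 CPM, the IC lanes between 1.04 and 1.41 and the control lanes between 2.94 and 4.15.

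The embryonic alpha genes hbae4 and hbae5 of the same small cluster did not share this step of hbbe3. The other beta gene of that cluster, hbbe2, has no row under its own symbol and was not followed by name. For hbae4 the lanes had 14.2, 13.5, 12 and 17.6 CPM in Dx-IONP, 0.472, 1.12, 0.621 and 0.626 CPM in IC, and 2.92, 2.98, 3.89 and 4.79 CPM in control. The 3 libraries do not overlap in these lanes. The log2 fold of hbae4 was 1.96 in Dx-IONP over control (1.78 to 2.17), -2.32 in IC over control (-2.91 to -1.87) and 4.28 in Dx-IONP over IC (3.86 to 4.87). For hbae5 the lanes had 15.4, 16.2, 16.5 and 15.2 CPM in Dx-IONP, 6.45, 4.49, 5.12 and 6.81 CPM in IC, and 3.91, 3.86, 4.78 and 5.39 CPM in control. Here IC and control lanes overlap, and the Dx-IONP lanes lie above both. Lanes repeat the sequencing of 1 library, so their overlap or separation does not show whether pools of larvae differ.

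The log2 fold of hbae5 was 1.81 in Dx-IONP over control (1.64 to 1.99), 0.35 in IC over control (0.13 to 0.57) and 1.46 in Dx-IONP over IC (1.27 to 1.67). It was the one embryonic member with a level above control in IC. Within a library, hbbe3 reads per hbae4 read came to 50.8 in Dx-IONP larvae (47.0 to 54.8), 1.69 in IC larvae (1.1 to 2.63) and 0.956 in controls (0.819 to 1.12). The number of hbae5 reads per hbae4 read was 1.1 in Dx-IONP larvae (0.994 to 1.23), 8.08 in IC larvae (5.70 to 11.8) and 1.23 in controls (1.06 to 1.42). The Dx-IONP and control intervals overlap, and the IC value, which rests on 36 reads of hbae4, lies above both.

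In the large cluster, hbae3 (ENSDARG00000079305) was the alpha gene least apart between Dx-IONP and control. Its lanes had 1727, 1721, 1744 and 1737 CPM in Dx-IONP, 356, 380, 365 and 358 CPM in IC, and 1087, 1108, 1078 and 1096 CPM in control. The lanes of the 3 libraries do not overlap. The log2 fold was 0.67 in Dx-IONP over control (0.65 to 0.68), which is under 2-fold, and 0.30 when scaled to total reads alone. In IC over control it was -1.58 (-1.61 to -1.56), and in Dx-IONP over IC 2.25 (2.22 to 2.27).

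The 3 hbae1 genes, tandem copies of an embryonic alpha gene, summed to 3967 CPM in Dx-IONP, 552 CPM in IC and 1327 CPM in control. The log2 fold of this sum was 1.58 in Dx-IONP over control (1.57 to 1.59), -1.27 in IC over control (-1.29 to -1.25) and 2.85 in Dx-IONP over IC (2.83 to 2.86). Single copies ranged from 1.3 (hbae1.3) to 1.85 (hbae1.2) in Dx-IONP over control. The hbae1.3 value was 0.97, under 2-fold, when scaled to total reads. In IC over control they ranged from -2.15 (hbae1.3) to -0.52 (hbae1.2), and hbae1.1 was at -1.36. By lane, hbae1.2 had 1684 to 1785 CPM in Dx-IONP, 326 to 341 in IC and 466 to 485 in control, and hbae1.3 had 1697 to 1753 CPM in Dx-IONP, 147 to 165 in IC and 681 to 690 in control.

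How reads were split among these copies is uncertain, because reads shared by similar transcripts were assigned by likelihood. In Dx-IONP the lanes differed beyond sampling noise for hbae1.1 (chi-square per degree of freedom 11.38), hbae1.2 (12.90) and hbae1.3 (5.15), where values above 2.60 pass the 95% point. For the sum of the copies the value was 0.12. In IC the sum itself varied between lanes (3.73), by 535 to 565 CPM, which is small beside the differences between libraries. The sum is thus better measured in Dx-IONP than any single copy. Excess spread between lanes was not confined to these copies. Of 25 sets of lane values of the globin genes, 11 passed the 95% point (median 1.70, where sampling alone gives 0.79). Among them were hbae4 in Dx-IONP (4.71) and in control (4.98). The embryonic alpha sum in IC was at 4.74, with lanes from 900 to 940 CPM. In such cases the counting intervals understate even the spread between lanes.

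The make-up of the embryonic alpha reads differed between the libraries. The hbae1 copies together gave 69.2% of them in Dx-IONP larvae (69.1 to 69.4), 59.8% in IC larvae (59.3 to 60.2) and 54.7% in controls (54.5 to 54.9). The share of hbae3 was 30.2% in Dx-IONP larvae, 39.5% in IC larvae and 45.0% in controls. The copy hbae1.2 held 30.1% in Dx-IONP larvae, 36.2% in IC larvae and 19.7% in controls, while hbae1.3 held 30.3% in Dx-IONP larvae, 16.7% in IC larvae and 28.2% in controls. These are shares of reads, not adjusted for transcript length, and are compared between libraries only.

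**Figure D2:**
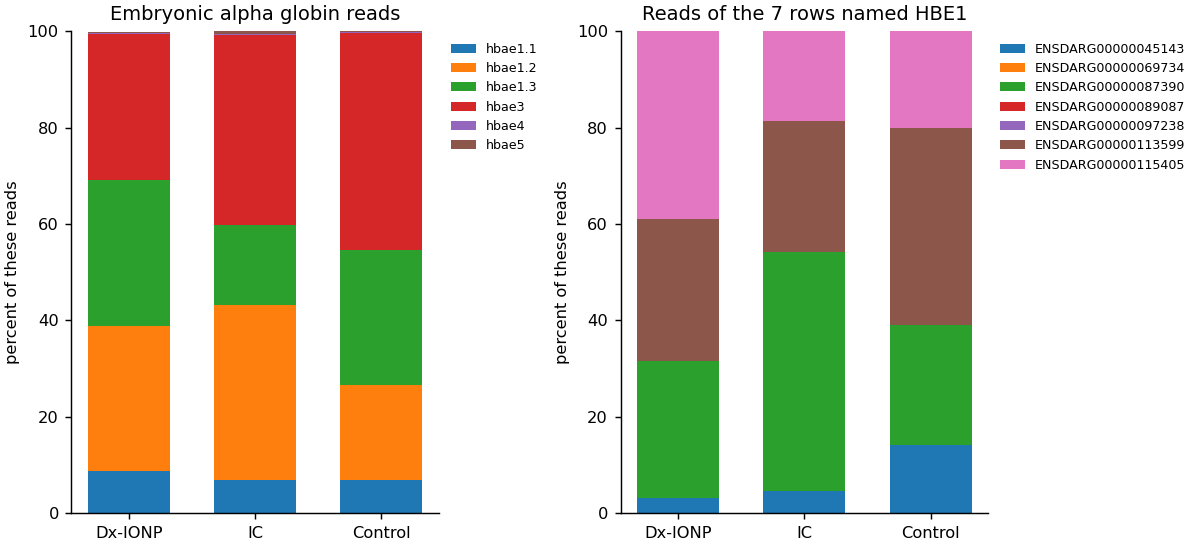
Shares of globin reads by gene. Stacked bars give the percent of embryonic alpha reads (left) and of the reads of the 7 rows named HBE1 (right) in the Dx-IONP, IC and control libraries. The hbae3 part is 30.2% in Dx-IONP larvae, 39.5% in IC larvae and 45.0% in controls, and the part of ENSDARG00000045143 is 3.15% in Dx-IONP larvae, 4.46% in IC larvae and 14.2% in controls.

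The adult alpha genes hbaa1 and hbaa2, which encode the alpha chains of adult haemoglobin, were close to absent from all 3 libraries. By lane, hbaa1 had 5, 4, 3 and 5 reads in Dx-IONP, 1, 1, 2 and 3 reads in IC, and 2, 3, 4 and 0 reads in control. For hbaa2 there were 0, 2, 0 and 2 reads in Dx-IONP and 0 reads in every lane of IC and control. A count of 0 allows up to 0.062 CPM of all reads in IC and 0.036 in control. Neither gene reached 1 CPM in any library, so both stayed out of the counts below.

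Adult reads per embryonic alpha read were 7.72e-05 in Dx-IONP larvae (4.78e-05 to 0.000118), 0.000149 in IC larvae (6e-05 to 0.000307) and 3.98e-05 in controls (1.82e-05 to 7.56e-05). The ratio of these shares was 1.94 in Dx-IONP over control (0.851 to 4.81), 3.75 in IC over control (1.19 to 11.3) and 0.517 in Dx-IONP over IC (0.212 to 1.44). It is only in IC over control that the interval excludes 1, on 7 and 9 adult reads, where embryonic alpha reads were low in IC. The level of the adult sum itself had a log2 fold of 1.89 in Dx-IONP over control (1.01 to 3.50), 0.40 in IC over control (-1.15 to 2.10) and 1.49 in Dx-IONP over IC (0.40 to 3.16). Both folds of Dx-IONP meet the 2-fold rule used below, though on 21 reads in Dx-IONP. Without lane 4 the IC value was -0.22. The scaled ratio of hbaa1 was 3.70 in Dx-IONP over control (log2 interval 0.64 to 3.24), on 17 against 9 reads. For hbaa2, 4 reads in Dx-IONP stand against none elsewhere, and no fold is given.

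Of the 9 globin genes, 7 reached 1 CPM in at least 1 library and entered the count over all genes. The count took genes that were 2-fold or more apart with a counting interval that excluded a ratio of 1. In Dx-IONP over control, 6 of the 7 were higher and none lower (median log2 fold 1.81). Of all 16807 genes, 45.1% passed the same rule, 20.9% higher and 24.2% lower, with a median of 0.03. Scaled to total reads alone the 7 gave 5 higher, and over all genes 2301 were higher and 5334 lower where TMM gave 3505 and 4070, with the median gene at -0.35.

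In IC over control, 5 of the 7 were lower and none higher (median -1.52), where 29.2% of all genes passed, 15.1% lower and 14.1% higher. In Dx-IONP over IC, all 7 tested were higher (median 2.98), where 50.6% of all genes passed, 24.1% higher and 26.5% lower. Total read scaling left that count at 7, with 2936 genes higher and 5411 lower where TMM gave 4046 and 4455, and the median gene at -0.27. Each pair of these comparisons shares a library.

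The rows named HBE1 followed the same order of libraries in sum. They had 14161 CPM in Dx-IONP, 2135 CPM in IC and 4572 CPM in control, a log2 fold of 1.63 in Dx-IONP over control (1.63 to 1.64), -1.1 in IC over control (-1.11 to -1.09) and 2.73 in Dx-IONP over IC (2.72 to 2.74). With them, all 16 globin rows made up 1.77% of the reads in Dx-IONP larvae, 0.322% in IC larvae and 0.776% in controls. Of the 7 rows, 5 reached 1 CPM, and 4 of these were higher in Dx-IONP over control (20.9% of all genes) and 3 lower in IC over control (15.1% of all genes). Among the 4 higher rows, ENSDARG00000069734 reached 1 CPM in Dx-IONP alone (1.92 CPM, against 0.216 in IC and 0.15 in control). It thus entered the count only through the library where it was high.

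The exception in Dx-IONP was ENSDARG00000045143, with lanes at 449, 443, 446 and 448 CPM in Dx-IONP, 93.8, 96.7, 96.0 and 94.2 in IC, and 649, 644, 645 and 655 in control. Every Dx-IONP lane lay below every control lane, at a log2 fold of -0.54, or -2.77 in IC over control. Of the rows with the most reads, ENSDARG00000115405 differed most in Dx-IONP, at 5504 CPM in Dx-IONP, 400 CPM in IC and 923 CPM in control (log2 fold 2.58 in Dx-IONP over control). In IC, ENSDARG00000087390 stood at 1063 CPM against 1137 CPM in control, so it hardly differed (-0.10) where most globin rows were lower. Shared reads were assigned by likelihood for these rows too. How far they share reads with hbbe3 or with each other was not tested.

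The ratio of alpha reads to beta reads, with hbbe3 and the rows named HBE1 taken as beta, was 0.385 in Dx-IONP larvae (0.383 to 0.387), 0.432 in IC larvae (0.427 to 0.437) and 0.531 in controls (0.528 to 0.533). Alpha reads were thus a smaller part of globin reads in Dx-IONP and in IC than in control. As transcript lengths were not used, the ratio says nothing of equal amounts within a library.

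**Figure D3:**
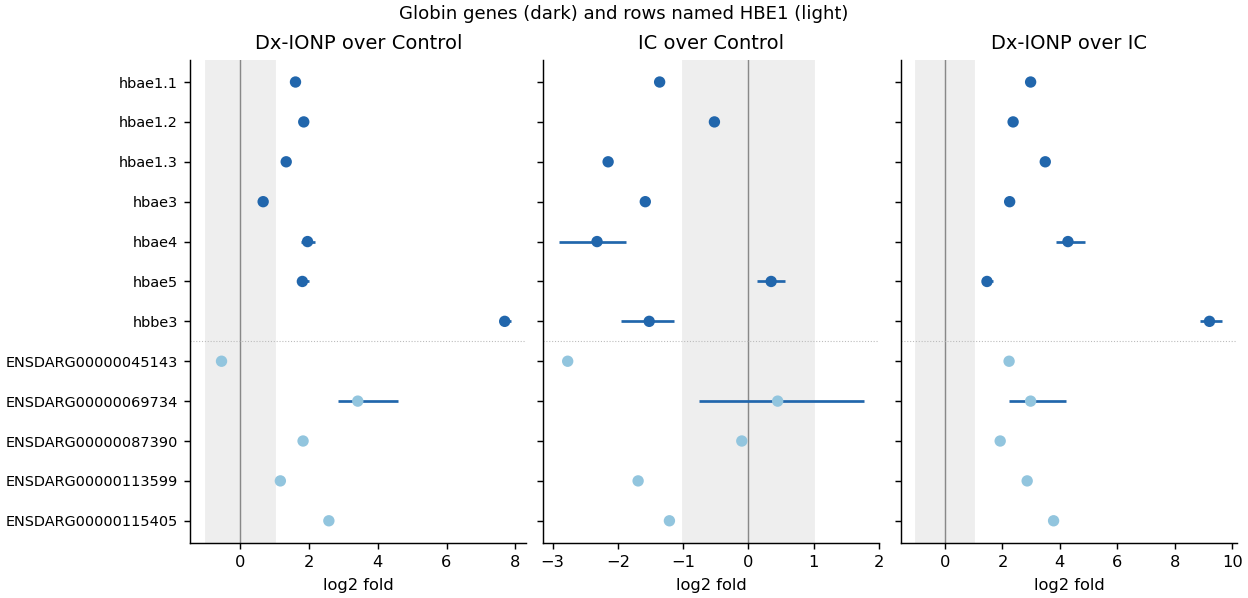
Log2 folds of the 7 embryonic globin genes at 1 CPM or more (dark) and of the 5 rows named HBE1 at that level (light), with exact 95% counting intervals as lines, for Dx-IONP over control, IC over control and Dx-IONP over IC. The grey band marks less than 2-fold. The gene hbbe3 lies at 7.69 in Dx-IONP over control while the embryonic alpha genes lie between 0.67 and 1.96.

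Other genes of red cells were set beside the globins. Haem is made in a chain of enzyme steps that begins with alas2 in red cells, and iron reaches it through the transferrin receptor and the mitochondrial importer SLC25A37. In this list 23 of 32 genes were matched by name and reached 1 CPM. In Dx-IONP over control 11 were higher and none lower (median log2 fold 0.83), which is 47.8% past the rule against 45.1% of all genes, and 47.8% higher against 20.9%. In IC over control none was higher and 2 lower (median 0.08), or 8.70% past the rule against 29.2% of all genes. The genes named next have the largest folds of the list in Dx-IONP over control. The enzyme gene alas2 had 605 CPM in Dx-IONP larvae, 107 in IC larvae and 85.8 in controls. The importer gene SLC25A37 had 18.0 CPM in Dx-IONP larvae, 1.14 in IC larvae and 0.784 in controls. A transferrin receptor gene, tfr1a, had 82.3 CPM in Dx-IONP larvae, 15.0 in IC larvae and 8.43 in controls, and STEAP3, an iron reductase gene, had 2.89 CPM in Dx-IONP larvae, 0.688 in IC larvae and 0.548 in controls. STEAP3 reached 1 CPM in Dx-IONP alone, so it entered the counts only through the library where it was high.

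The other 12 genes did not pass the rule in Dx-IONP over control, and some had levels below control, such as the haem exporter gene FLVCR1 (-0.76) and the iron-sulphur cluster gene ISCA1 (-0.75). The list's median of 0.83 was under 2-fold, where that of the globin genes was 1.81. Per alas2 read there were 9.46 embryonic alpha reads in Dx-IONP larvae, 8.66 in IC larvae and 28.3 in controls. So alas2 was further above control than embryonic alpha globin in Dx-IONP, and in IC it was slightly above control while the globin was below.

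Of 46 further erythroid genes, 31 were matched by name and 29 reached 1 CPM, with stat5a at 0 reads throughout. In Dx-IONP over control 10 were higher and 2 lower (median 0.59), in IC over control 3 were higher and 4 lower (median 0.05), and in Dx-IONP over IC 12 were higher and 4 lower (median 0.75). The shares past the rule, 41.4% in Dx-IONP over control, 24.1% in IC over control and 55.2% in Dx-IONP over IC, were near those of all genes (45.1%, 29.2% and 50.6%). By direction, 34.5% were higher and 6.9% lower in Dx-IONP over control, against 20.9% and 24.2% of all genes. In IC over control 10.3% were higher and 13.8% lower, against 14.1% and 15.1%. In Dx-IONP over IC 41.4% were higher and 13.8% lower, against 24.1% and 26.5%. The list was not tested as a set, and its genes are given as values. SPTB, the beta spectrin of the red cell skeleton, had 192 CPM in Dx-IONP larvae, 81.8 in IC larvae and 51.1 in controls. The red cell carbonic anhydrase gene cahz had 472 CPM in Dx-IONP larvae, 281 in IC larvae and 167 in controls. EPOR, the erythropoietin receptor gene, had 6.99 CPM in Dx-IONP larvae, 2.67 in IC larvae and 1.64 in controls. All of these were above control in IC too, though by less than 2-fold.

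Among transcription factors, klf1, a Krüppel-like activator of erythroid genes, was higher in both Dx-IONP and IC, with 9.71 CPM in Dx-IONP larvae, 13.8 in IC larvae and 4.35 in controls. NFE2, a bZIP factor of red cell precursors and platelets, had 5.26 CPM in Dx-IONP larvae, 2.26 in IC larvae and 2.18 in controls. LDB1, a bridging protein of GATA1 complexes, had 77.3 CPM in Dx-IONP larvae, 18.4 in IC larvae and 19.0 in controls. ZFPM1, a cofactor of GATA1, was lower in Dx-IONP, at 2.19 CPM against 12.5 in control (log2 fold -2.50). The zinc finger gene znfl2a had 124 reads in Dx-IONP larvae, 1 in IC larvae and 23 in controls, the same order as hbbe3. It reached 1 CPM in Dx-IONP alone (2.61 CPM), so it entered the counts of its list only through that library.

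Other genes of the list more than 2-fold apart in Dx-IONP over control were kel, a blood group antigen gene, at 2.58, the actin-oxidising enzyme gene MICAL2 at 2.50, the F-box gene fbxo7 at 1.11 and XK, whose product binds the Kell protein, at -1.05. Named after its values were seen, gata1a, the master regulator of red cell genes, had 3.16 CPM in Dx-IONP larvae, 0.806 in IC larvae and 1.65 in controls. Its log2 fold was 0.92 in Dx-IONP over control (0.60 to 1.27) and -1.01 in IC over control (-1.57 to -0.53). Also named afterwards, hemgn, a nuclear protein gene of red cell precursors, had 61.1 CPM in Dx-IONP larvae, 16.5 in IC larvae and 40.5 in controls. Both had the order of the embryonic globin sum, as did 12 of the 29 erythroid genes (41.4%), 7 of the 23 haem and iron genes (30.4%) and 21.1% of all genes tested. The order was more frequent still among the 72 cytosolic ribosomal protein genes taken up below, at 52 of them (72.2%), so it is not particular to red cell genes. Others were above control in IC, among them klf1 (1.66), MICAL2 (2.03) and kel (1.51).

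**Figure D4:**
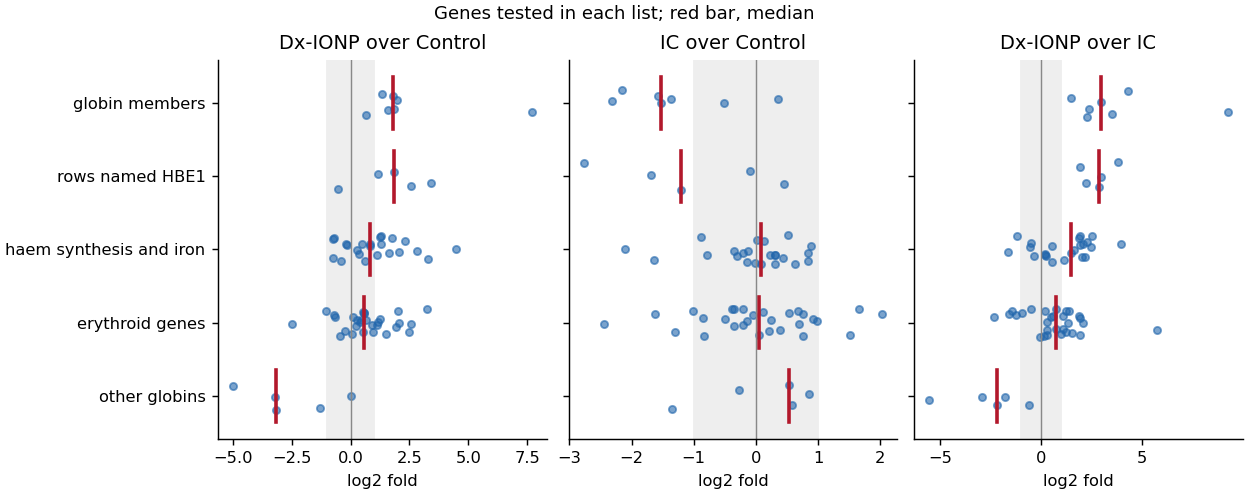
Log2 folds of the tested genes of 5 lists, each point 1 gene and each red bar the list's median, for Dx-IONP over control, IC over control and Dx-IONP over IC. In Dx-IONP over control the medians are 1.81 for globin members, 0.83 for haem synthesis and iron genes, 0.59 for erythroid genes and -3.15 for other globins.

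Most globins outside the haemoglobin genes went the other way in Dx-IONP. Of 5 such genes, 4 were lower in Dx-IONP over control and none higher (median log2 fold -3.15), where 24.2% of all genes were lower. In IC over control 1 was lower, where 15.1% of all genes were. The oxygen store of muscle, myoglobin (mb), had 10.4 CPM in Dx-IONP larvae, 36.5 in IC larvae and 93.2 in controls. Neuroglobin (NGB), a globin of nerve cells, had 1.41 CPM in Dx-IONP larvae, 66.4 in IC larvae and 45.9 in controls. Of the cytoglobin genes, CYGB had 37.0 CPM in Dx-IONP larvae, 167 in IC larvae and 92 in controls, and cygb2 had 1.73 in Dx-IONP larvae, 13.4 in IC larvae and 16.1 in controls. The gene of globin X, xgb, had 1.03 CPM in Dx-IONP larvae, 1.55 in IC larvae and 1.03 in controls. High globin RNA in Dx-IONP was therefore not seen across the wider globin family.

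Markers of other blood and vessel cells, which a whole larva also holds, were read the same way, and their counts stand against 20.9% of all genes higher and 24.2% lower in Dx-IONP over control. Thrombocyte genes summed to 151 CPM in Dx-IONP larvae, 50.4 in IC larvae and 65 in controls, with 3 of 5 tested higher in Dx-IONP over control and 1 lower. The vesicle protein gene NBEAL2 led them, at 55.2 CPM in Dx-IONP larvae, 5.72 in IC larvae and 4.85 in controls. The gene f5, which did not pass the rule in Dx-IONP over control, held a large part of these sums. It had 65.1 CPM in Dx-IONP larvae, 19.7 in IC larvae and 40.5 in controls. Myeloid genes summed to 289 CPM in Dx-IONP larvae, 306 in IC larvae and 292 in controls, with 4 of 8 higher and 1 lower in Dx-IONP over control (median log2 fold 1.02). The lower one, the transcription factor gene CEBPA, holds much of these sums, at 77.9 CPM in Dx-IONP larvae, 207 in IC larvae and 196 in controls, so the sums do not show the higher values of the others. Blood stem and progenitor genes summed to 63.3 CPM in Dx-IONP larvae, 70.7 in IC larvae and 88.5 in controls. In Dx-IONP over control 3 of 6 were lower and none higher. GATA2 differed most (log2 fold -3.42), at 3.12 CPM in Dx-IONP larvae, 13.5 in IC larvae and 33.8 in controls. The lower sum in Dx-IONP rests on that gene. The other lower genes, RUNX1 and gata2b, had 9 reads each in Dx-IONP, and RUNX1 reached 1 CPM in IC alone. Endothelial genes summed to 194 CPM in Dx-IONP larvae, 264 in IC larvae and 157 in controls, and 1 of 9 was higher in Dx-IONP over control. In IC over control 2 were higher and 2 lower, against 14.1% and 15.1% of all genes. A large part of the IC sum was cdh5, at 37.2 CPM in Dx-IONP larvae, 126 in IC larvae and 31.4 in controls. Replication and cell cycle genes had, in sum, the order of the embryonic alpha globins, with 2201 CPM in Dx-IONP larvae, 928 in IC larvae and 1295 in controls. Singly, 4 of the 7 had this order, where 21.1% of all genes did, and 3 of 7 were higher in Dx-IONP over control. Much of the Dx-IONP sum was PCNA, at 1007 CPM in Dx-IONP larvae, 191 in IC larvae and 442 in controls. The part of any of these cells in the globin values was not tested.

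Low globin values in IC came with low values of another abundant group, the genes of cytosolic ribosomal proteins, which were listed after the data had been seen. Of 72 such genes, 61 were lower in IC over control and none higher (median log2 fold -1.82), against 15.1% of all genes lower. In Dx-IONP over control 13 were higher and 4 lower (median 0.37). These are 18.1% and 5.56%, against 20.9% and 24.2% of all genes, so the share higher was near that of all genes. In Dx-IONP over IC, 62 of the 72 were higher and 3 lower (median 2.29), against 24.1% and 26.5% of all genes. Ribosomal protein reads were 5.26% of all reads in Dx-IONP larvae, 2.15% in IC larvae and 4.42% in controls. For every 100 of them there were 10.5 globin member reads in Dx-IONP larvae, 4.53 in IC larvae and 6.10 in controls. With the rows named HBE1 added, the 16 globin rows had 33.6 reads per 100 in Dx-IONP larvae, 15.0 in IC larvae and 17.6 in controls. Set against ribosomal protein reads the libraries kept their order in both counts. IC was closer to control, and closest over the 16 rows. The part of what lowered ribosomal protein reads in the IC globin values was not tested.

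The genes whose pattern over the 3 libraries was most like that of each globin type were found by distance between their pairs of log2 folds against control, among 11486 genes with at least 10 CPM in a library. Nearest to the embryonic alpha sum were her2, a transcriptional repressor gene, at 1.21 in Dx-IONP and -1.41 in IC, the cytochrome oxidase subunit gene COX5A at 1.24 in Dx-IONP and -1.44 in IC, and arl11, a small GTPase gene, at 1.2 in Dx-IONP and -1.43 in IC. Nearest to hbbe3 were si:dkey-23a13.22 at 8.15 in Dx-IONP and -1.44 in IC, the folate enzyme gene MTHFD1L at 7.81 in Dx-IONP and -1.02 in IC, and zgc:110216 at 7.28 in Dx-IONP and -1.03 in IC. These lay 0.466 to 0.636 log2 units from hbbe3, against 0.0267 to 0.0490 for the neighbours of the alpha sum. All 3 were close to 0 in IC and control (at most 0.0787 CPM in IC and 0.193 in control), so their folds depend on the prior count. Nearest to the adult sum, which rests on 21 reads in Dx-IONP larvae, 7 in IC larvae and 9 in controls, were SLC12A9, LAMA5 and LZTS2. The genes her2, arl11 and LZTS2 and the 3 neighbours of hbbe3 reached 10 CPM in Dx-IONP alone. They thus entered the search only through the library where they were high. A likeness over 3 libraries is a description only.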

How the data were processed

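Poly(A) RNA of whole larvae was sequenced as 1 library per condition on 4 lanes. The authors deposited 1 table of estimated counts per gene and lane, unnormalized and written as whole numbers. Salmon 1.6.0, R 4.1.2, DESeq2 1.34.0, FastQC and the build GRCz11 are named in the submitters' processing notes. The sources used here do not give the summing of transcripts to genes, the use of strand or any filter. Lane totals ran from 13569110 to 14063966 in Dx-IONP, 11847840 to 12239616 in IC and 20606371 to 21329490 in control.

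The deposited estimated counts were summed over lanes per library. TMM factors (edgeR 4.0.16, R 4.3.3, over all rows with reads) were 0.86 for Dx-IONP, 1.05 for IC and 1.11 for control. Genes with at least 1 CPM in a library were kept (16807). Log2 folds used a prior count of 2. Ratio and share intervals are exact Clopper-Pearson intervals at 95%, and a count of 0 was bounded at 3 counts. The rule was run on simulated counts with counting error alone, which cannot show how it behaves under a spread between pools. Python 3.11.15 and scipy 1.17.1 were used.

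Globin genes and all gene lists were chosen with earlier results of these data known. Named genes were all globin members, every other globin, up to 12 erythroid genes and up to 4 genes of each other list by largest log2 fold in Dx-IONP over control, and the 3 nearest neighbours of each globin type. Named beyond these limits were FLVCR1 and ISCA1, as examples below control, gata1a and hemgn, after their values were seen, and stat5a, which had no reads. So were cdh5 and f5, which held a large part of the sums of their lists. Symbols came from a name table, with synonyms from RefSeq (GRCz12tu, used for names and gene order only). Where a listed name had no row, a row named without the paralog letter was taken. Alternatives were other scalings (DESeq2 1.42.0 size factors, total reads), filters and prior counts, and leaving out a lane. No sequence is shown, because no sequence table was used here.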

Additional observations from a re-analysis of the deposited data

Results flagged for a closer look

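Lane 3 of the Dx-IONP library gave the lowest of 4 lane values for hbae1.3, 1697 CPM, where the other lanes lay between 1751 and 1753 CPM. The gap was 0.958 of the range, above Dixon's 95% limit for 4 values. Of 25 sets of lane values tested for the globin genes this was the only one, and chance alone marks about 1 set in 20. In the same lane hbae1.2 had its highest value, 1785 CPM, and the sum of the hbae1 copies lay between 3962 and 3976 CPM over the lanes.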

How the results depend on the processing

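Under each scaling, filter, prior count and left-out lane, the embryonic alpha sum and the 7 globin genes at 1 CPM or more kept the direction of their folds. With DESeq2 size factors the embryonic alpha sum was at 1.25 in Dx-IONP over control, -1.37 in IC over control and 2.62 in Dx-IONP over IC. Scaled to total reads it was at 0.87 in Dx-IONP over control, -1.47 in IC over control and 2.34 in Dx-IONP over IC. These values held with or without globin member reads in the totals. Both total read scalings leave out the TMM factors (0.86 for Dx-IONP, 1.05 for IC and 1.11 for control). Why these factors differ was not tested. In these scalings hbbe3 in Dx-IONP over control was at 7.32 and 7.33, and hbae1.3 dropped under 2-fold (0.97 and 0.98). With at least 10 CPM, 5018 genes were past the 2-fold rule in Dx-IONP over control, because fewer genes were tested. Leaving out 1 lane at a time moved the embryonic alpha sum between -1.40 and -1.38 in IC over control and between 2.62 and 2.64 in Dx-IONP over IC. It moved the adult sum in IC over control between -0.22 and 0.64, which was -0.22 without lane 4, against 0.40 over all lanes. With hbbe3 alone as beta, an alternative chosen after seeing the data, alpha reads per beta read were 7.87 in Dx-IONP larvae, 769 in IC larvae and 695 in controls. Reads per residue were not computed, as no protein lengths were used. No paired analysis was possible because the shared numbers are lanes of 1 library per group and no test between groups was made.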
